A study of Saccharomyces cerevisiae YPS1009 with 40 samples.

Results

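The day 7 transcriptome of a haploid oak-soil yeast with an extra copy of chromosome IV was set against that of its euploid relative. The members were chosen by their labels: the 2 cultures of YPS1009_Chr4 and the 2 cultures of the euploid strain at day 7, which are 4 of the 40 libraries of the series, across all 5864 genes that could be tested of 6714 listed. All strains are haploids of the YPS1009 background grown in rich YPD medium at 30 °C with shaking and no added nutrients, and by the labels the day 7 cultures were harvested 168 hours from the start of culturing (the study's methods count these hours from the log-phase harvest). YPS1009_Chr4 is a MATa strain with the ho-Δ1 allele, the euploid is a MATa strain with an ho deletion marked by HphMX, and the strains with an extra Chr12 (ho deletion marked by HphMX), Chr14 or Chr15 (both ho-Δ1), which serve here only for comparison, were sampled at the same day with 2 cultures each. Each karyotype is represented by 1 strain, so extra chromosome, strain and HO allele cannot be told apart. HO, the mating-type switching endonuclease, had 0 and 0 counts in the YPS1009_Chr4 cultures and 4 and 8 counts in the euploid cultures. The reads in euploid go against the deletion listed for that strain, and edgeR called HO higher in euploid in log phase as well (adjusted p = 7.11e-05); euploid is used here as the name the strain is given. The 0 counts allow up to 2.62 and 3.39 CPM (the count of a gene scaled to a library total of 1000000).

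When glucose runs out, budding yeast cells shift to respiration, stop dividing and can enter quiescence, a reversible arrest. In this state most transcription is shut down, the genes for making ribosomes are repressed through the TORC1 and protein kinase A pathways, and transcripts for stress defence, storage and recycling make up more of what is left. A duplicated chromosome adds a copy of every gene it carries, so transcripts of these genes are generally more abundant. Surplus proteins can burden the chaperones, ubiquitin and the proteasome. The study describes little such stress in wild strains during log-phase growth, unless they are challenged further. Ribosome quality control is the pathway that splits stalled ribosomes and ubiquitinates the unfinished peptides.

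The 4 libraries held 1145475 and 884007 counts in YPS1009_Chr4 and 1142125 and 1858064 counts in euploid, replicates 1 and 2. The YPS1009_Chr4 libraries were concentrated in few genes: their 50 most abundant genes took 50.2% and 48.5% of counts, against 29.7% and 22.1% in euploid and 22.4% to 40.2% in the 6 libraries of the other aneuploids at day 7. Of the 5864 genes tested, 794 and 905 had no read in the YPS1009_Chr4 cultures, and 190 and 55 had none in the euploid cultures. The euploid cultures also disagreed with each other. Across genes, Pearson's r of log2 CPM was 0.95 between the YPS1009_Chr4 cultures and 0.86 between the euploid cultures, a description over 5864 genes that share their libraries. YPS1009_Chr4 replicate 1 had an r of 0.85 with euploid replicate 1 and 0.75 with euploid replicate 2, and for YPS1009_Chr4 replicate 2 the values were 0.85 and 0.75. Calls on every scale, defined below, therefore hold against each euploid culture, and list medians are given against each; a TMM difference with 1 value is taken against both. Markers of dividing cells summed to 28.8 and 18.1 CPM in YPS1009_Chr4 and to 95.4 and 205 CPM in euploid, against 1073 to 1139 CPM in the 4 log-phase libraries of these strains. The 7 markers were CLN1, CLN2, CLB2, CLB6, RNR1, POL1 and MCM2, and CLB6 was at 0 in both YPS1009_Chr4 cultures and in euploid replicate 1. Their part in the differences was not tested. The a-cell markers were low at day 7 (62.0 and 65.6 CPM in sum in YPS1009_Chr4, 92.8 and 133 in euploid, against 1234 to 1616 in log phase), and the alpha-cell markers summed to 27.9 and 47.5 CPM in YPS1009_Chr4 and to 121 and 98.5 in euploid, against 21.4 to 33.6 in log phase.

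The first question was whether the genes of the duplicated chromosome were more abundant at day 7. They were, by close to 1 on the log2 scale, which is a doubling. Over the 766 chromosome IV genes tested, the median log2 difference between YPS1009_Chr4 and euploid was above that of all other genes by 0.98 and 1.05 for YPS1009_Chr4 replicate 1 against euploid replicates 1 and 2, and by 0.97 and 1.04 for YPS1009_Chr4 replicate 2. The mean over the 4 pairs of cultures was 1.01, with an SD of 0.0059 between the 2 YPS1009_Chr4 cultures. The other 15 chromosomes lay between -0.43 (chromosome VIII) and 0.13 (chromosome XIII). These values are over all genes tested. With at least 10 counts in each of the 4 cultures, the others lay between -0.72 (chromosome I) and 0.20 (chromosome XIII), beside 0.73 for chromosome IV. With at least 100 counts they lay between -0.67 (chromosome V) and 0.00039 (chromosome XIII), beside 0.78. Over all genes tested, the chromosome IV value was 0.98 in log phase, 0.98 at day 1 and 0.95 at day 3, where the pairs ranged from 0.84 to 1.07. This measure compares genes within a library and does not depend on how libraries are scaled. It has no test, since 2 cultures against 2 cannot give a two-sided permutation p below 0.33.

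**Figure D1:**
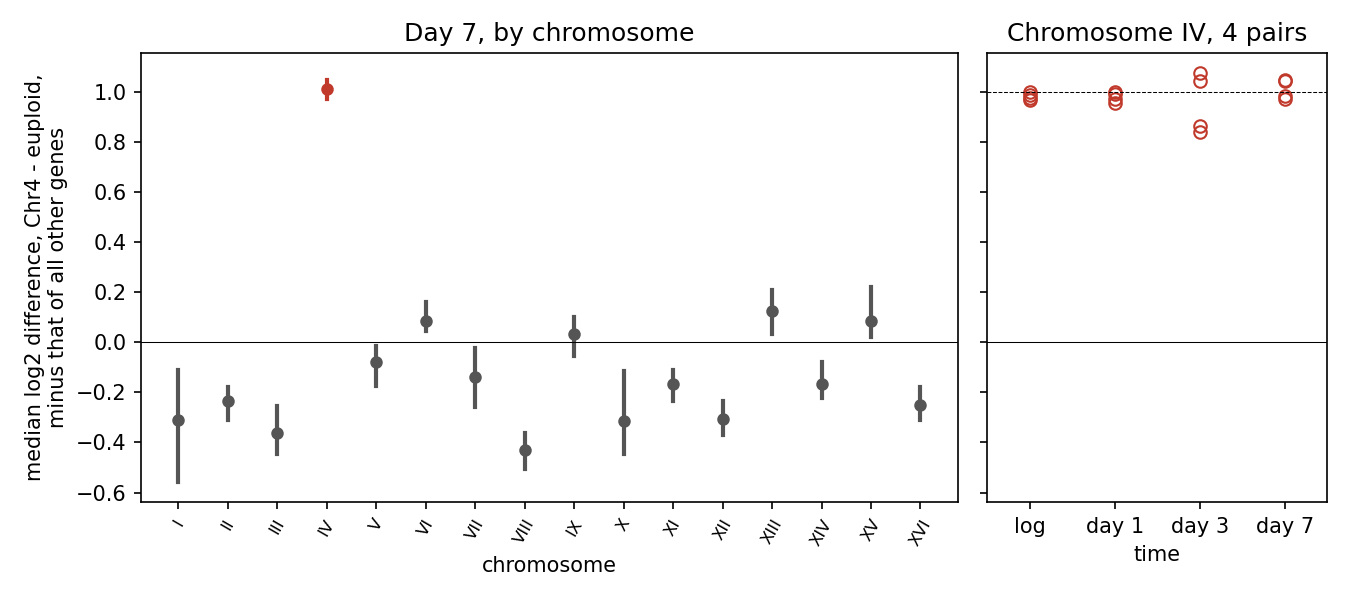
Left, the median log2 difference (YPS1009_Chr4 minus euploid) of each chromosome's genes minus that of all other genes at day 7; points are means over 4 pairs of cultures and bars run from the lowest to the highest pair. Right, the chromosome IV value of each of the 4 pairs at each time. Over all genes tested, chromosome IV stands at 1.01 at day 7 and the other chromosomes lie between -0.43 and 0.13. The others spread more widely where genes with few counts are left out.

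The excess was spread over the chromosome and over most of the range of levels. Among the 613 chromosome IV genes in the upper 3 of 4 equal groups by mean CPM over the 4 cultures, the median above the other genes was 1.16 on the left arm (191 genes) and 1.24 on the right arm (422 genes). In 10 consecutive stretches of 61 or 62 genes, the median ran from 0.72 to 1.62, and no stretch lacked the excess. Single genes varied far more: the quartiles were 0.093 and 2.36, and 142 of the 613 genes lay under the median of the other genes. Over the 4 groups, the excess was 0.57 for genes under 10.6 CPM, 1.05 and 1.16 in the middle groups, and 1.00 for genes above 90.0 CPM. Where only genes with at least 100 counts in each of the 4 cultures were kept, it was 0.78, a selection that leaves out genes that fell to few reads.

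The 5 chromosome IV genes with the highest mean CPM were named by rule. ARO10, the phenylpyruvate decarboxylase that starts the breakdown of aromatic amino acids to fusel alcohols, stood at 14405 and 12067 CPM in YPS1009_Chr4 and at 431 and 676 CPM in euploid. ENA1, a plasma membrane sodium pump, stood at 18162 and 16037 CPM against 4996 and 6127. SED1, a major cell wall protein of stationary phase, stood at 30131 and 32640 CPM against 7122 and 5269. GYP7, which switches off the vacuolar GTPase Ypt7, and CTA1, the peroxisomal catalase, complete the 5: GYP7 stood at 16559 and 13670 CPM against 1305 and 2164, and CTA1 at 13092 and 6068 CPM against 5648 and 1815. For each of these genes both YPS1009_Chr4 cultures lay above both euploid cultures. The excess of all but CTA1 passed the test on every scale described next. The mean CPM included the YPS1009_Chr4 cultures, so the rule favours genes that are high in them and the shared direction is in part built in. SSD1, also on chromosome IV but not among the 5, stood at 2341 and 2644 CPM in YPS1009_Chr4 and at 8517 and 4033 in euploid. These euploid levels are above those of ARO10 and GYP7. ENA1 has near-identical neighbours, ENA2 and ENA5, so its reads may be shared with them.

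Across all genes, the number that differed depended on how the libraries were scaled. The libraries could not be put on a scale per cell, since the counts analysed hold no Sz. pombe spike-in genes. All differences are therefore relative to the rest of the library, and fewer cells, or cells with less RNA, cannot be told apart from a change of a transcript within the cell. With TMM scaling in edgeR's quasi-likelihood test over all 40 libraries (adjusted p under 0.05 by Benjamini and Hochberg), 1327 genes (22.6% of those tested) were higher in YPS1009_Chr4 and 1862 (31.8%) were lower. The median over all genes was -0.59 on the log2 scale. DESeq2's size factors gave 1531 higher and 1468 lower, and centring on the median gene gave 1767 higher and 964 lower. Dividing by total counts gave 326 higher (5.56%) and 4448 lower (75.9%), with a median of -2.48. Called against each euploid culture with TMM, meaning with both and with either left out, were 961 higher (16.4%) and 857 lower (14.6%). The direction of many genes thus rests on the scale. Differences also varied with level. With total counts, the median over genes off chromosome IV was -0.98 in the highest of the 4 equal groups by mean CPM. In the groups below it was -2.23, -2.88 and -2.54, from the lowest up. A list median set against all genes may therefore also reflect the level of its members, for which no list was matched. A stricter call, chosen after the values were seen, is used for the genes below: the same direction past the threshold with all 4 scales, each against both euploid cultures and against either alone. It held for 226 genes higher (3.85%) and 465 lower (7.93%) in YPS1009_Chr4. These are "higher" or "lower on every scale" in what follows. Of the 226 higher genes, 193 had at least 100 counts in both YPS1009_Chr4 cultures. The shares over all genes that are set beside the lists below are therefore not matched for level either.

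**Figure D2:**
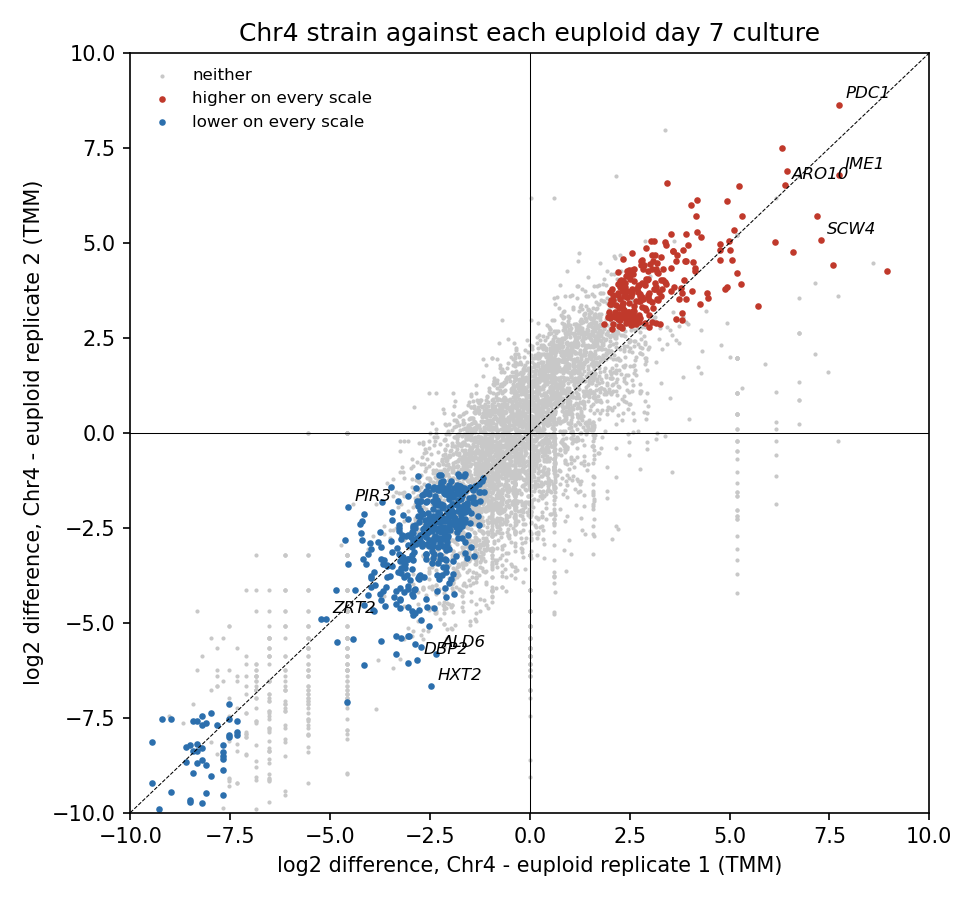
Each point is a gene: the TMM-scaled log2 difference of YPS1009_Chr4 from euploid replicate 1 (x axis) and from euploid replicate 2 (y axis), with the dashed line at equality. Red marks the 226 genes higher and blue the 465 genes lower on every scale; 17 genes fall outside the plotted range, and the group at the lower left has fitted values set by counts at or near 0 in YPS1009_Chr4.

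Of the 226 genes higher on every scale, 79 (35.0%) lie on chromosome IV, which holds 13.1% of the genes tested. Put the other way, 10.3% of chromosome IV genes and 2.88% of other genes were higher on every scale. Of the 465 genes lower on every scale, 14 (3.01%) lie on chromosome IV. The 147 genes that were higher from other chromosomes include those with the largest differences. Of the 465 lower genes, 53 had no read in either YPS1009_Chr4 culture and 196 had at most 3 counts in each, so many of these differences end at the detection limit and their size is not known.

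The 10 genes with the largest excess in YPS1009_Chr4 were PDC1, IME1, CIS1, GPX2, ARO10, UGA4, YCL048W-A, SCW4, CTF3 and TRR1. This is a difference between strains at day 7 and not a change over time. PDC1 stood at 32889 and 37275 CPM in YPS1009_Chr4 in log phase, above its day 7 level. PDC1, the main pyruvate decarboxylase of fermentation, stood at 11570 and 14968 CPM in YPS1009_Chr4 and at 166 and 154 CPM in euploid. The groups did not overlap, and the log2 difference was 8.14 with TMM (SE 0.62, adjusted p = 1.89e-11) and 6.37 with total counts. IME1, the master regulator of entry into meiosis, stood at 1562 and 1733 CPM against 21.0 and 70.0, a TMM difference of 7.11 (SE 0.39, adjusted p = 5.75e-14). Its target IME2, a kinase of early meiosis, went the other way, at 0.873 and 2.26 CPM in YPS1009_Chr4 and 44.7 and 61.9 CPM in euploid, and was lower on every scale. NDT80, SPO11, SPS1 and SMK1, which act later in meiosis and spore formation, had at most 4 counts in each YPS1009_Chr4 culture. The sum of the 6 meiotic markers, 1569 and 1739 CPM in YPS1009_Chr4, was thus nearly all IME1.

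UGA4, the permease for the neurotransmitter and nitrogen source GABA, is on chromosome IV. It stood at 798 and 956 CPM in YPS1009_Chr4 and at 63.0 and 44.7 CPM in euploid. SCW4, a cell wall protein similar to glucanases, stood at 306 and 190 CPM against 4.38 and 35.0, so its euploid cultures differed widely but neither reached a YPS1009_Chr4 culture. CTF3, a kinetochore protein, stood at 226 and 175 CPM against 14.0 and 18.3. CIS1 (1032 and 793 CPM against 31.5 and 23.7) and the small open reading frame YCL048W-A (88.2 and 175 CPM against 11.4 and 8.61) are given without a role. GPX2 and TRR1 are described with the oxidative defence genes. The TMM differences of the 10 genes ran from 5.39 for TRR1 to 8.14 for PDC1, and from 3.34 to 6.37 with total counts.

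The 10 genes with the largest deficit in YPS1009_Chr4 relative to euploid were HXT2, DBP2, ZRG17, ZRT2, ALD6, UBP10, ECM15, GIT1, VID24 and PIR3. HXT2, a high-affinity glucose transporter, stood at 22.7 and 24.9 CPM in YPS1009_Chr4 and at 358 and 11297 CPM in euploid. The euploid cultures differed here by more than the lower of them differed from YPS1009_Chr4, and the gene was lower against each. ALD6, the cytosolic acetaldehyde dehydrogenase, stood at 8.73 and 10.2 CPM against 131 and 2479, and VID24, a subunit of the ubiquitin ligase that marks gluconeogenic enzymes for degradation, stood at 16.6 and 15.8 CPM against 335 and 1496. In these 3 genes euploid replicate 2 was the higher. UBP10, a ubiquitin protease of histone H2B, stood at 5.24 and 3.39 CPM against 150 and 494. PIR3, a cell wall protein, had the opposite order in euploid, at 8.73 and 10.2 CPM against 602 and 171. GIT1, the glycerophosphoinositol permease, was even between the euploid cultures, at 7.86 and 21.5 CPM against 690 and 654. ECM15, given without a role, stood at 2.62 and 2.26 CPM against 167 and 82.3. With TMM the 10 differences ran from -5.75 for HXT2 to -3.76 for PIR3. ECM15, from 5 counts in all in YPS1009_Chr4, had a ratio of euploid to YPS1009_Chr4 CPM of 46.5, with an exact 95% counting interval of 19.8 to 144.

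**Figure D3:**
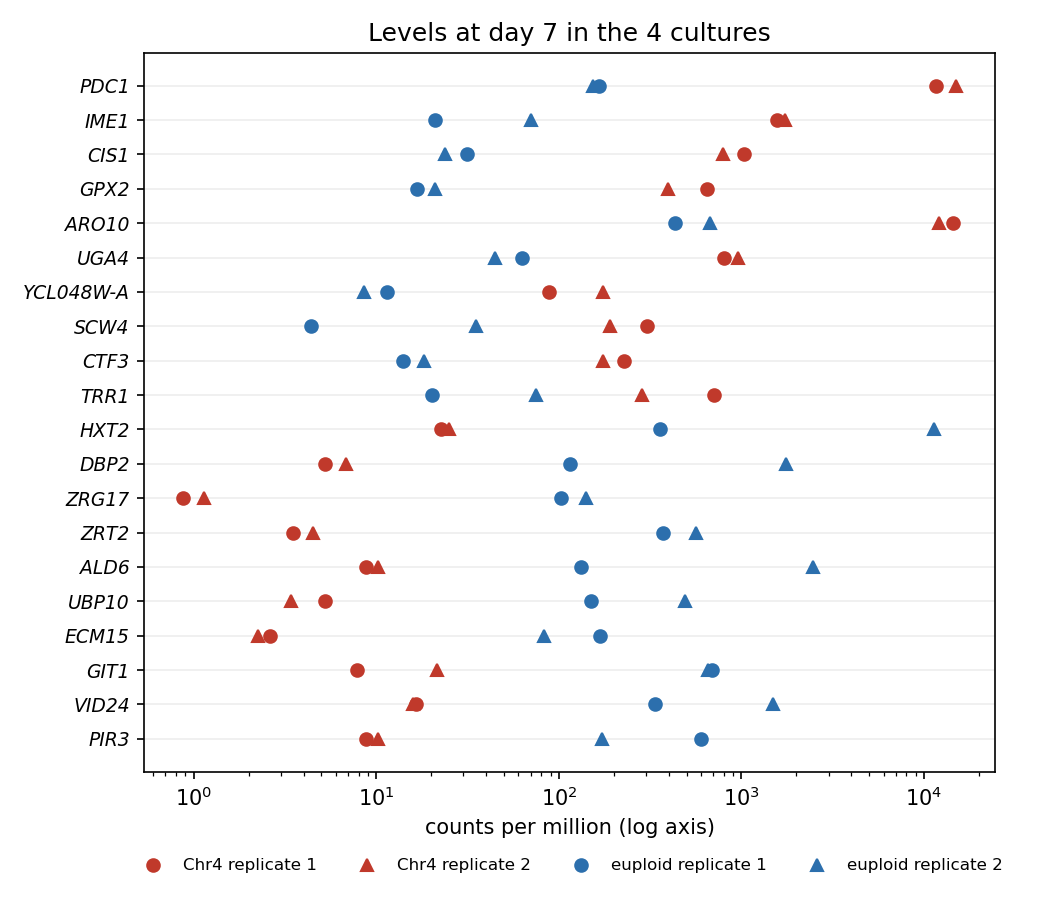
Levels in CPM at day 7, on a log axis, with 1 symbol per culture. The 10 genes with the largest excess in YPS1009_Chr4 are at the top and the 10 with the largest deficit at the bottom. In each of the 20 genes both YPS1009_Chr4 cultures lie on one side of both euploid cultures, which the choice of genes fixes.

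Genes of ribosome production were lower as a group. Ribosome biogenesis factors, which process ribosomal RNA and assemble the subunits in the nucleolus, share 2 promoter elements in yeast: the PAC element GATGAG, bound by the repressors Dot6 and Tod6, and the RRPE element AAAAATTTT, bound by Stb3. In the 300 bases from 250 before to 50 after each start codon in RefSeq's R64 genome, on either strand, GATGAG was found for 93 of the 100 factors listed (93%), and for 1121 of 5682 genes with a promoter sequence (19.7%). AAAAATTTT was found for 70 of the 100 (70%) and for 7.25% of all. The 2 elements do not overlap in their letters and often stand next to each other. The windows of 4 genes of these functions are shown because their transcripts were lower on every scale; capitals mark GATGAG or its reverse complement, or AAAAATTTT or its reverse complement, each line read along the strand of the gene.
DBP2, PAC, chrXIV:413472-413501, plus strand: tttacgccgatgCTCATCgcagaaaatttt
RRP5, PAC, chrXIII:731257-731286, minus strand: attttaaGATGAGATGAGctaaacccttct
RRP5, RRPE, chrXIII:731271-731300, minus strand: AAAAATTTTgAAAAATTTTaagatgagatg
NOP7, PAC, chrVII:695286-695315, plus strand: gcGATGAGATGAGATGAGaaaaaatgaaaa
RPA135, PAC, chrXVI:581283-581312, minus strand: ttagagaCTCATCTCATCtcttaattattc
RPA135, RRPE, chrXVI:581312-581341, minus strand: tttcgtatgAAAAATTTTTcaagcgcatct
A match is a description of the letters and not of a bound site. Sites nearest to the start codon are shown; that of DBP2 begins 155 bases before the start codon, and those of RRP5, NOP7 and RPA135 begin 151, 119 and 104 bases before it.

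Of the 100 ribosome biogenesis factors, 21 were lower and 0 were higher on every scale, against 7.93% and 3.85% of all genes, and with TMM 87 were lower and 4 higher, against 31.8% and 22.6%. Their median was 2.05 below the median of all genes on the log2 scale (-1.05 against euploid replicate 1 and -2.69 against replicate 2). In sum they took 759 and 981 CPM in YPS1009_Chr4, 3526 CPM in euploid replicate 1 and 21619 CPM in euploid replicate 2. The euploid cultures thus stood far apart, and YPS1009_Chr4 lay under both. DBP2, an RNA helicase of messenger and ribosomal RNA metabolism, stood at 5.24 and 6.79 CPM in YPS1009_Chr4 and at 115 and 1759 CPM in euploid. From the summed counts its ratio of euploid to YPS1009_Chr4 CPM was 192, with an exact 95% counting interval of 110 to 371. Euploid replicate 2 gave 3269 of these counts and replicate 1 gave 131, so the ratio mostly reflects replicate 2. The interval leaves out the difference between the euploid cultures. With TMM the DBP2 difference was -2.82 against replicate 1 and -5.98 against replicate 2. RRP5, needed to make both ribosomal subunits, stood at 7.86 and 9.05 CPM against 98.1 and 793, and NOP7, a factor of the large subunit, at 7.86 and 10.2 CPM against 75.3 and 306. The most abundant factor, REA1, which remodels the large subunit precursor, stood at 41.9 and 54.3 CPM against 215 and 880, and was not lower against each euploid culture with TMM. Of the 7 subunits listed of RNA polymerase I, which transcribes the ribosomal RNA genes, all 7 were lower with TMM and 1, RPA135, on every scale (6.11 and 13.6 CPM against 96.3 and 835).

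The 138 cytosolic ribosomal protein genes followed, with 32 lower and 2 higher on every scale, against 7.93% and 3.85% of all genes. Their median was 0.86 under that of all genes (-0.89 against euploid replicate 1 and -1.17 against replicate 2). Their sum was 2336 and 3124 CPM in YPS1009_Chr4, and 8455 and 17686 CPM in euploid. RPL3, of the large subunit, stood at 17.5 and 35.1 CPM in YPS1009_Chr4 and at 296 and 1369 CPM in euploid. The 2 genes that were higher, RPL35A and RPL35B, are near-identical copies on chromosome IV, between which reads could be split. RPL35A stood at 155 and 277 CPM against 63.9 and 132, and RPL35B at 75.1 and 124 CPM against 7.88 and 19.4. Both YPS1009_Chr4 cultures were above both euploid cultures for either copy. Of the other 17 ribosomal protein genes on chromosome IV, 1 was lower on every scale. On other chromosomes, RPS30B (182 and 232 CPM against 213 and 194) and RPS10B (163 and 180 CPM against 146 and 147) were higher with TMM but not with total counts, where their differences were 0.03 and 0.23. Of 25 translation factors, EFB1, NIP1, SUI3 and GCD11 were lower on every scale and none was higher. Elongation factor gene YEF3 stood at 72.5 and 133 CPM against 423 and 5672.

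The study asks about ribosome quality control, and 22 genes of this pathway and of stall rescue were examined. CDC48 was higher on every scale, 3 genes were lower (RKR1, HBS1 and ASC1), and 18 were neither. With 3.85% of all genes higher and 7.93% lower, no direction is read from these counts. The median of the list was 0.18 under that of all genes against euploid replicate 1 and 1.11 under it against replicate 2. CDC48, the segregase that pulls ubiquitinated peptides from the ribosome and lies on chromosome IV, stood at 2230 and 1829 CPM in YPS1009_Chr4 and at 993 and 496 CPM in euploid, with a TMM difference of 3.13 (SE 0.38, adjusted p = 7.85e-08) and a total-count difference of 1.45. RKR1, also called LTN1, the ubiquitin ligase of the pathway, stood at 6.11 and 6.79 CPM against 60.4 and 150 (TMM difference -2.10, SE 0.45, adjusted p = 3e-04). ASC1, the ribosomal protein at which collided ribosomes are sensed, stood at 10.5 and 26.0 CPM against 157 and 364.

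The other members did not show 1 direction. RQC1, which lies on chromosome IV, stood at 113 and 91.6 CPM in YPS1009_Chr4 and at 131 and 203 CPM in euploid. It was higher with TMM (1.18, SE 0.20, adjusted p = 1.86e-05) and lower with total counts (-0.71, adjusted p = 0.00617), so its direction is set by the scale. RQC2, which adds the carboxy-terminal tails, stood at 17.5 and 39.6 CPM against 39.4 and 98.5. HEL2, the sensor of collided ribosomes and also on chromosome IV, stood at 36.7 and 53.2 CPM against 63.9 and 155. With TMM, RQC2 was higher against euploid replicate 1 (0.92, adjusted p = 0.0394) but did not pass against replicate 2 (0.37, adjusted p = 0.306) or against both (0.59, adjusted p = 0.0917). HEL2 likewise was higher against replicate 1 (0.91, adjusted p = 0.018) and did not pass against replicate 2 (0.41, adjusted p = 0.204) or both (0.62, adjusted p = 0.051). With total counts the differences were -1.33 and -1.31. The YPS1009_Chr4 values of RQC2 overlapped with those of euploid replicate 1.

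Among the genes of ubiquitin and its recycling, 2 were higher on every scale in YPS1009_Chr4. UBI4, the polyubiquitin gene of stressed and starved cells, stood at 3709 and 3081 CPM in YPS1009_Chr4 and at 1738 and 1335 CPM in euploid, higher on every scale (TMM difference 2.89, SE 0.36, adjusted p = 1.27e-07; total-count difference 1.14). DOA4, the protease that recovers ubiquitin from cargo on its way to the vacuole and a chromosome IV gene, stood at 2850 and 4109 CPM against 525 and 308. RPS31, which encodes ubiquitin fused to a ribosomal protein, went the other way with TMM (27.1 and 20.4 CPM against 135 and 228) but not on every scale. UBI4 and DOA4 were the members of the 11 listed with a call on every scale, 2 higher and 0 lower, against 3.85% and 7.93% of all genes. With TMM 4 were higher and 5 lower, and with total counts 2 were higher and 8 lower. No direction is read for the list. Of 33 proteasome subunits, RPT2, RPT6 and RPN13 were higher on every scale and none was lower. The median was 1.00 and 1.75 above that of all genes against euploid replicates 1 and 2, with no matching for level. The direction of the rest rests on the scale: 22 were higher and 1 lower with TMM, and 5 were higher and 22 lower with total counts. RPT2, an ATPase subunit of the base and a chromosome IV gene, stood at 1111 and 1159 CPM against 528 and 388. RPN4, the activator of the proteasome genes, is a chromosome IV gene and was also higher on every scale; it was picked out after its values were seen.

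Of 26 cytosolic chaperones, HSP26 and CDC37 were higher and 0 were lower on every scale, against 3.85% and 7.93% of all genes. With TMM 10 were higher and 7 lower, and with total counts 2 were higher and 21 lower. No direction is read for the list. HSP26, a small heat shock protein that holds unfolding proteins, stood at 1779 and 2545 CPM in YPS1009_Chr4 and at 369 and 326 CPM in euploid. CDC37, the co-chaperone that brings kinases to Hsp90, is on chromosome IV and stood at 904 and 1796 CPM against 395 and 275. HSP12 and SSA3 stood in the other direction in CPM: HSP12, a membrane-stabilizing stress protein, at 482 and 831 against 5611 and 2386, and SSA3, an Hsp70, at 285 and 260 against 2644 and 1059. Neither was lower against each euploid culture with TMM. In the endoplasmic reticulum, KAR2, the Hsp70 of this compartment, stood at 1743 and 4628 CPM against 698 and 521, and its exchange factor LHS1 at 263 and 683 CPM against 74.4 and 160. These were the 2 of 21 folding genes that were higher on every scale, with 0 lower, against the same shares of all genes. With TMM 10 were higher and 4 lower, and with total counts 3 were higher and 13 lower.

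Oxidative defence was the list with the largest share of genes higher on every scale among the nuclear lists of 20 or more genes. Of its 21 genes, SOD1, CCP1, TRR1, TSA1, TSA2 and GPX2 were higher and 0 were lower, against 3.85% and 7.93% of all genes. The median of the list was 2.41 above that of all genes (1.61 against euploid replicate 1 and 3.44 against replicate 2). Neither the shares nor the median is matched for level. GPX2, a phospholipid peroxidase, stood at 646 and 396 CPM in YPS1009_Chr4 and at 16.6 and 21.0 CPM in euploid. TRR1, thioredoxin reductase, stood at 706 and 286 CPM against 20.1 and 74.8. The peroxiredoxin TSA1 stood at 418 and 217 CPM against 102 and 59.7, and its low-level paralog TSA2, on chromosome IV as is TRR1, at 62.0 and 31.7 CPM against 0.876 and 4.31. In each of these genes replicate 1 of YPS1009_Chr4 was the higher of the pair, and the groups did not overlap. SOD1, the copper-zinc superoxide dismutase, stood at 731 and 440 CPM against 239 and 131, and CCP1, the mitochondrial cytochrome c peroxidase, at 768 and 321 CPM against 144 and 86.6. The most abundant members, CTA1 and the peroxiredoxin gene AHP1 (2110 and 1895 CPM against 2121 and 1067), were higher with TMM but not on every scale.

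**Figure D4:**
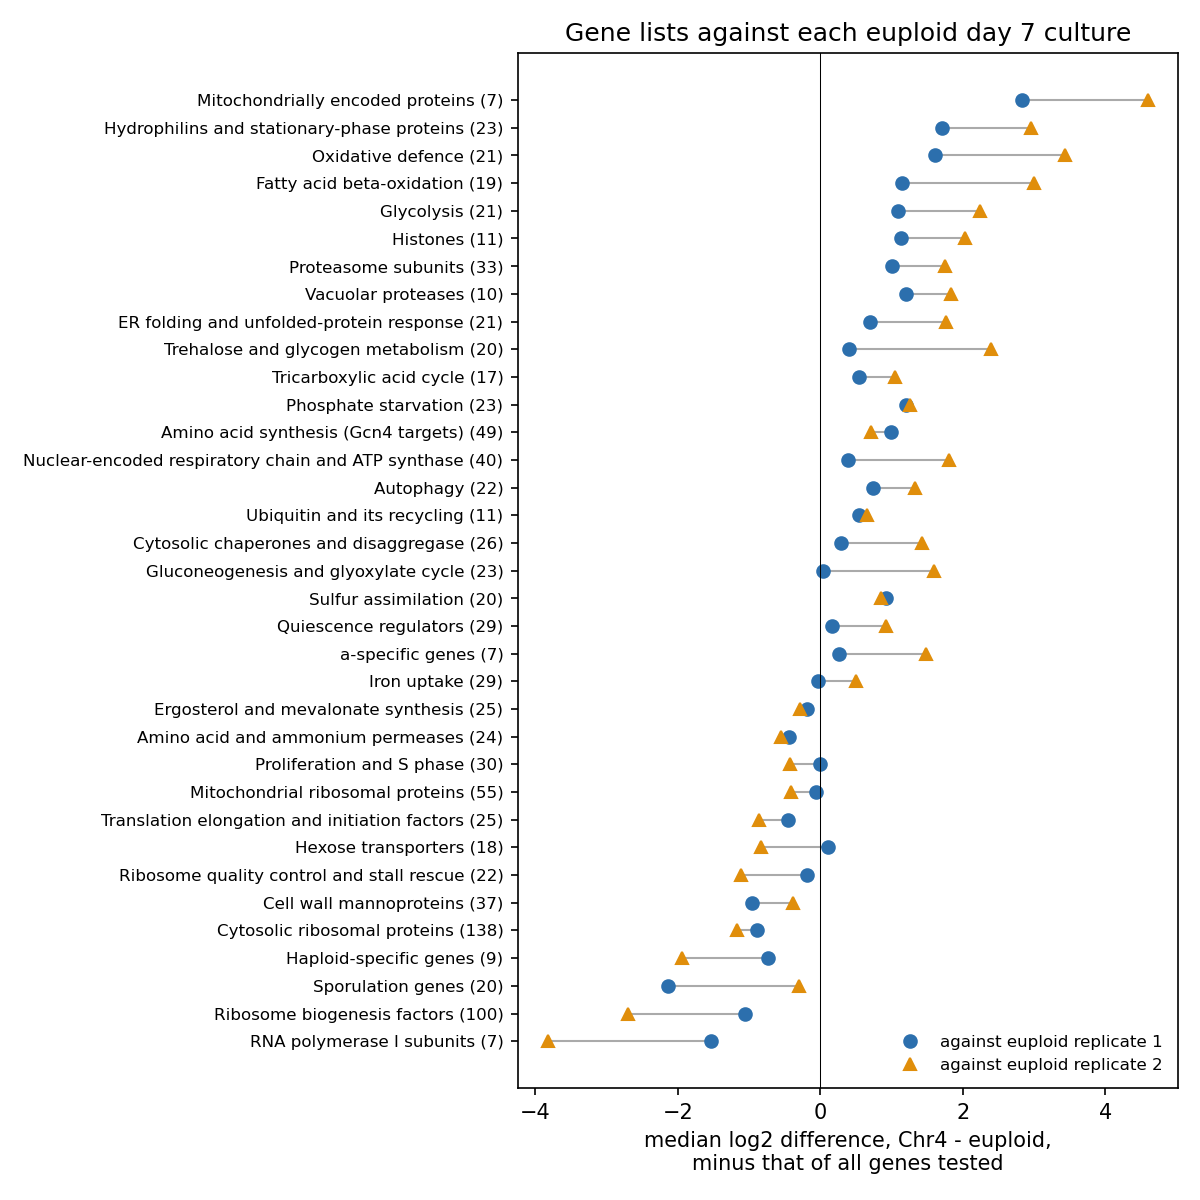
For each gene list of at least 7 tested genes (number in brackets), the median log2 difference of YPS1009_Chr4 from euploid replicate 1 (circle) and from euploid replicate 2 (triangle), TMM-scaled, minus the median of all genes tested. Mitochondrially encoded genes stand at 2.84 and 4.59 and ribosome biogenesis factors at -1.05 and -2.69. Lists are not matched for level.

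Transcripts of the mitochondrial genome were higher in YPS1009_Chr4. Of 7 tested, COX1, COX2, COX3, COB, ATP6 and OLI1, which encode subunits of cytochrome oxidase, the bc1 complex and ATP synthase, were higher on every scale. COX1 stood at 42332 and 40071 CPM in YPS1009_Chr4 and at 24196 and 12797 CPM in euploid, and COB at 16577 and 12295 CPM against 4774 and 2694. All genes of the mitochondrial genome together took 11.3% and 9.91% of counts in YPS1009_Chr4 and 5.39% and 2.91% in euploid. This was not particular to YPS1009_Chr4: the share was 13.0% and 10.8% in the 2 YPS1009_Chr12 cultures and between 2.84% and 4.16% in the other 4 aneuploid libraries. Of the 40 nuclear genes for the respiratory chain and ATP synthase, QCR8 and COX7 were higher on every scale and 0 lower, against 3.85% and 7.93% of all genes. The list's median was 0.39 above that of all genes against euploid replicate 1 and 1.81 against replicate 2. QCR8, a bc1 complex subunit, stood at 501 and 458 CPM against 144 and 119. Of 55 mitochondrial ribosomal proteins, MRPL31 was higher and 5 were lower (MRPL35, MRPL20, MRPL15, MRPS5 and MRP21), against 3.85% and 7.93% of all genes, and no direction is read from these counts.

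Some genes for recycling and for the use of fat were higher on every scale, beside 3.85% of all genes higher and 7.93% lower, not matched for level. Of 22 autophagy genes, ATG1, ATG8, ATG9, ATG11 and VPS15 were higher on every scale and 0 lower. ATG9 is on chromosome IV. ATG8, the ubiquitin-like protein that coats the forming autophagosome, stood at 2076 and 2074 CPM in YPS1009_Chr4 and at 805 and 413 CPM in euploid, and ATG1, the kinase that starts the process, at 5330 and 5857 CPM against 2601 and 1347. The vacuolar protease PRB1 stood at 17882 and 17209 CPM against 5456 and 5361 and carboxypeptidase CPS1 at 1404 and 1029 CPM against 475 and 292. These were the 2 of 10 vacuolar proteases with a call on every scale; PRC1, carboxypeptidase Y, stood at 217 and 242 CPM against 2334 and 854 without passing against each euploid culture. For fatty acid beta-oxidation, PXA1, PXA2 and ADR1 of 19 genes were higher and FAA4 was lower. ADR1 is on chromosome IV. PXA1, which with PXA2 imports long-chain fatty acids into the peroxisome, stood at 9193 and 7498 CPM against 2000 and 1046. Of 26 peroxisome biogenesis genes, a list added after values were seen, PEX3, PEX5, PEX19 and PEX30 were higher and PEX6 and PEX8 lower. PEX3, PEX5 and PEX19 are on chromosome IV. PEX19, the chaperone of peroxisomal membrane proteins, stood at 1414 and 1727 CPM against 282 and 194. The direction of the other members rests on the scale. With TMM, 10 autophagy genes were higher and 2 lower, and with total counts 5 and 14. For vacuolar proteases these counts were 4 and 1, then 2 and 5. For beta-oxidation they were 10 and 1, then 4 and 8, and for peroxisome biogenesis 12 and 6, then 4 and 16.

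Some genes of nitrogen metabolism were called on every scale, in both directions. ARO9, the transaminase that feeds ARO10, stood at 1142 and 735 CPM in YPS1009_Chr4 and at 96.3 and 160 CPM in euploid, and PUT1, proline oxidase, at 3284 and 2309 CPM against 440 and 652. With ARO10 and UGA4 they made 4 genes higher and 0 lower on every scale among 17 genes of amino acid and GABA catabolism, a list made after these genes had been seen and so no support for a pattern. GAD1, which makes GABA from glutamate, stood at 33.2 and 23.8 CPM against 401 and 137. Of 49 amino acid synthesis genes that Gcn4 activates, LYS20, ARG1 and GDH1 were among those higher, and LEU9 and ARO4 were lower. LYS20 is on chromosome IV. GDH1, the glutamate dehydrogenase of ammonium assimilation, stood at 691 and 527 CPM against 8.76 and 135. Of 24 permeases of amino acids and ammonium, MUP3 was higher and TAT1, LYP1 and SAM3 were lower. LYP1, the lysine permease, stood at 15.7 and 23.8 CPM against 180 and 199. STR3, cystathionine beta-lyase, was the one of 20 sulfur assimilation genes with a call on every scale (632 and 912 CPM against 235 and 257). Beside 3.85% of all genes higher and 7.93% lower, no direction is read from the calls in the synthesis, permease and sulfur lists.

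Some metal and phosphate genes differed as well. ZRT2, the low-affinity zinc transporter of the plasma membrane, stood at 3.49 and 4.52 CPM in YPS1009_Chr4 and at 370 and 561 CPM in euploid (TMM difference -5.01, SE 0.32, adjusted p = 9.17e-13). ZRG17, which takes zinc into the endoplasmic reticulum, had 1 count in each YPS1009_Chr4 culture, 0.873 and 1.13 CPM, against 102 and 141 CPM. From those 2 counts, the ratio of euploid to YPS1009_Chr4 CPM was 128, with an exact 95% counting interval of 35.2 to 1062. In a list of 10 zinc genes added after these were seen, ZRT2, ZRG17, ADH4 and YKE4 were lower on every scale and 0 were higher. Over all genes 7.93% were lower and 3.85% higher. ZAP1, the activator of zinc uptake genes, stood at 2897 and 1925 CPM against 2601 and 1307, and the high-affinity transporter ZRT1 at 667 and 450 CPM against 2340 and 4200; ZRT1 did not pass with TMM (-0.63, adjusted p = 0.105).

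Among 29 iron uptake genes, FET3, FTR1, FRE6, ARN1 and ENB1 were lower and 0 higher on every scale, against 7.93% and 3.85% of all genes. Yet the median of the list was 0.038 under that of all genes against euploid replicate 1 and 0.51 above it against replicate 2. ARN1, a siderophore transporter, stood at 9.60 and 11.3 CPM against 191 and 170, and FET3, the ferroxidase of high-affinity uptake, at 6.98 and 5.66 CPM against 58.7 and 150. For phosphate, PHO89 and PHO8 of 23 genes were higher and GIT1 was lower. Beside the same shares of all genes, no direction is read from these counts. PHO8, the vacuolar alkaline phosphatase on chromosome IV, stood at 3619 and 2667 CPM against 269 and 529, and PHO89, the sodium-coupled phosphate transporter, at 20174 and 14194 CPM against 3391 and 9141.

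The direction of most glycolytic genes followed the scale. Of 21 glycolytic and fermentative genes, PDC1 was higher on every scale and 0 lower; with TMM 12 were higher and 2 lower, and with total counts 1 was higher and 8 lower. The median lay 1.09 and 2.24 above that of all genes against euploid replicates 1 and 2. FBA1, aldolase, stood at 2112 and 5747 CPM in YPS1009_Chr4 and at 3548 and 3621 CPM in euploid, so the groups overlapped. ADH1, alcohol dehydrogenase, stood at 551 and 1261 CPM against 1537 and 1080. Among 18 hexose transporters, HXT5, the transporter of slow-growing cells, was higher (21326 and 20240 CPM against 11978 and 8509), and HXT1 and HXT2 were lower. HXT7 (141 and 130 CPM against 296 and 4404) and HXT6, near-identical genes that may share reads, did not pass against each euploid culture. In gluconeogenesis and the glyoxylate cycle, IDP3 of 23 genes was higher and ALD6 lower. In the tricarboxylic acid cycle KGD2 of 17, a chromosome IV gene, was higher. Of 20 trehalose and glycogen genes 1, GSY1, was lower. Beside 3.85% of all genes higher and 7.93% lower on every scale, no direction is read from the calls in these lists.

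Some stationary-phase genes were higher in YPS1009_Chr4. Of 23 hydrophilins and stationary-phase genes, SPG3, TMA10, DDR2 and HOR7 were higher on every scale and 0 lower, against 3.85% and 7.93% of all genes. These shares are not matched for level, and SPG3 is on chromosome IV. The median was 1.70 and 2.96 above that of all genes against euploid replicates 1 and 2. TMA10 stood at 2089 and 1701 CPM in YPS1009_Chr4 and at 1198 and 1090 CPM in euploid. SPG4 (7924 and 7833 CPM against 4992 and 2045) and SPG5 (9107 and 8784 CPM against 10049 and 5630), named for stationary phase, were higher with TMM and not on every scale. Of 29 regulators of quiescence, IGO1, GIS1 and YAK1 were higher and PSR1 and SNF4 lower, which is no clear direction beside the 3.85% and 7.93% of all genes; with TMM 8 were higher and 10 lower. YAK1, a kinase that opposes growth and is held back by protein kinase A, stood at 3449 and 3511 CPM against 974 and 659, and GIS1, a transcription factor of the postdiauxic shift on chromosome IV, at 1423 and 1159 CPM against 481 and 631. HTA1, HTB1 and HHF2 of 11 histone genes were higher; HTA1 and HTB1, an H2A and H2B gene pair on chromosome IV with close copies elsewhere, stood at 347 and 501 CPM against 181 and 177 and at 694 and 739 CPM against 321 and 209. Of 30 genes of proliferation and S phase, MCM6 was lower and 0 higher. Of 37 cell wall mannoproteins, SED1 and SCW4 were higher and DAN4, PIR3 and CCW14 lower, close to the shares over all genes, and of 25 ergosterol and mevalonate genes HMG2 and IDI1 were lower. AXL1 was the one of 9 haploid-specific genes with a call on every scale, lower. None of the 7 a-specific, 4 alpha-specific and 6 SNZ and SNO genes had one; for the a- and alpha-specific genes edgeR also called 0 with TMM alone, with 0 at an unadjusted p under 0.05, and the DESeq2 Wald test called 1 a-specific gene.

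The second question was which of these differences set YPS1009_Chr4 apart from the other aneuploids at day 7. Against the mean of YPS1009_Chr12, _Chr14 and _Chr15, 435 genes (7.42%) were higher and 1768 (30.2%) lower with both TMM and total counts. This comparison shares the YPS1009_Chr4 libraries with the first, so the lists overlap in part by construction: 212 of the 226 genes higher on every scale and 453 of the 465 lower on every scale were called in the same direction here. In 17 of the 20 genes with the largest differences, both YPS1009_Chr4 cultures lay outside the range of the 6 libraries of the other aneuploids. The 20 genes were picked for their values in the same YPS1009_Chr4 libraries, so this is in part built in. The share of all genes outside that range was not counted. PDC1 ran from 70.9 to 5550 CPM in the other aneuploids, with a median of 130. Its 2 highest values, 947 and 5550 CPM, were those of the YPS1009_Chr12 cultures, which at day 3 stood at 10825 and 12304 CPM, so both were above euploid too. IME1 ran from 49.5 to 331 CPM with a median of 83.0. The YPS1009_Chr12 cultures, at 331 and 216 CPM, were above both euploid cultures here too. At day 3 IME1 stood at 425 and 721 CPM in YPS1009_Chr15 and at 19.7 and 21.4 CPM in euploid, so a high level was not confined to YPS1009_Chr4. UGA4 was tight, from 19.3 to 47.9 CPM. ECM15 and VID24 ran from 114 to 280 CPM and from 299 to 492 CPM, above both YPS1009_Chr4 cultures. The exceptions were CIS1, SCW4 and TRR1, and the highest values came from YPS1009_Chr12, whose cultures stood at 929 and 336 CPM for CIS1, at 197 and 238 CPM for SCW4 and at 317 and 103 CPM for TRR1. Each of these values is above both euploid cultures.

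The last question was when the differences arose. In log phase 437 genes were higher and 129 lower in YPS1009_Chr4 than in euploid with TMM, and 379 of the 437 lie on chromosome IV. At day 3 there were 1036 higher and 780 lower. Of the 226 genes higher on every scale at day 7, 41 were already called higher in log phase, 38 of them on chromosome IV, and 205 were called higher at day 3. Of the 465 lower ones, 18 were called lower in log phase and 222 at day 3. PDC1 differed by -0.53 in log phase, by -0.13 at day 1 and by 5.10 at day 3 (TMM). At day 3 PDC1 stood at 19098 and 21979 CPM in YPS1009_Chr4 and at 649 and 1529 CPM in euploid. IME1 differed by -0.31, -1.51 and 6.40 at these times, the first at no more than 0.352 CPM in any of the 4 log-phase libraries. GPX2 differed by -0.84 in log phase, -0.48 at day 1 and 0.20 at day 3, and by 6.71 at day 7. GIT1 differed by -4.32 at day 1 (adjusted p = 1.26e-06) and by -5.66 at day 3; in log phase it was at 0 CPM in both YPS1009_Chr4 cultures and at 0.352 and 0.478 CPM in the euploid cultures.

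**Figure D5:**
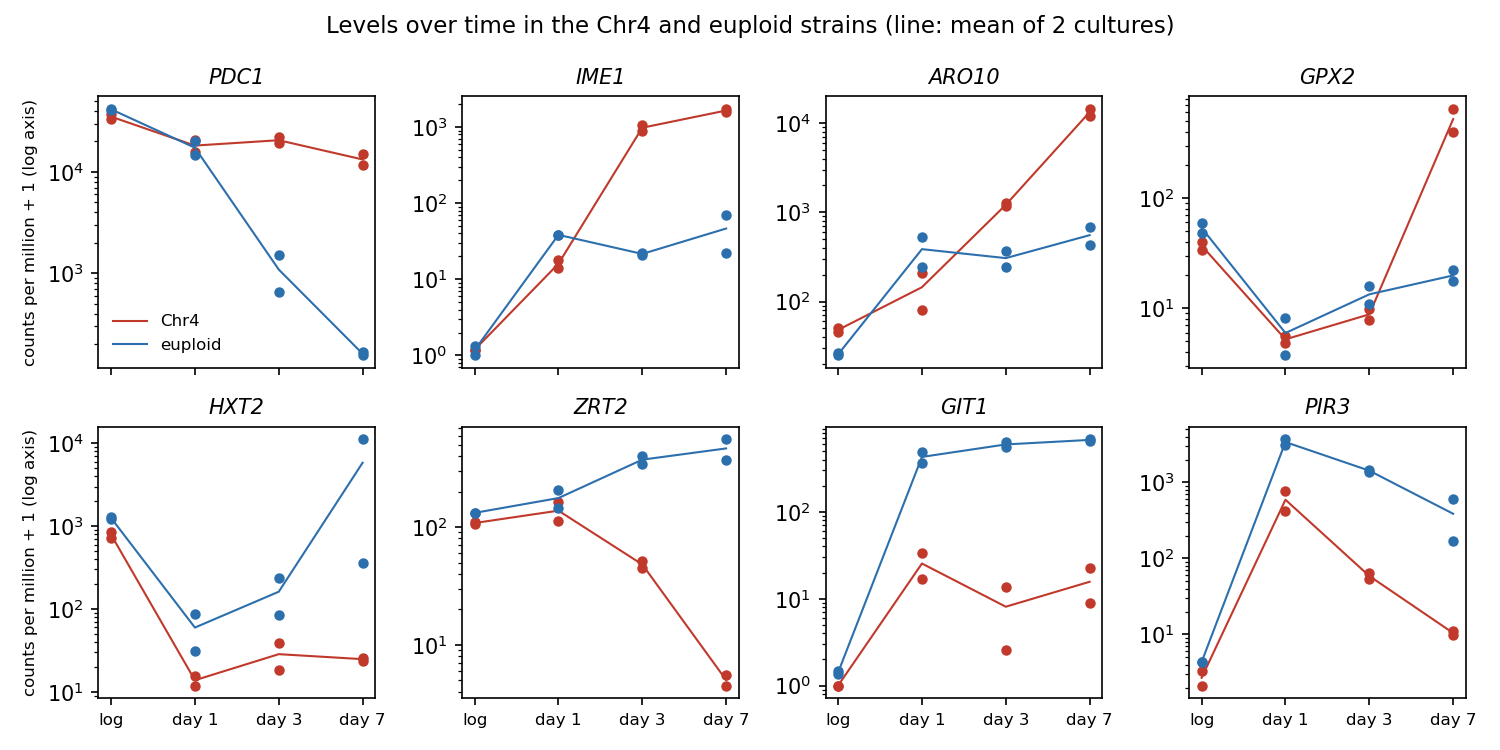
CPM plus 1, on a log axis, of 8 genes in log phase and at days 1, 3 and 7 in YPS1009_Chr4 (red) and euploid (blue); points are cultures and lines join the means of 2 cultures. PDC1 falls to 166 and 154 CPM in euploid at day 7 and is at 11570 and 14968 in YPS1009_Chr4, and HXT2 at day 7 differs between the euploid cultures.

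In the interaction test of the difference at day 7 against that in log phase, 976 genes were shifted upward and 1422 downward with TMM. This count too follows the scale, since total counts gave 4698 genes in all.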

How the data were processed

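The deposited values are read counts for each gene, unscaled; the authors made them from rRNA-depleted total RNA with HT-Seq after bwa-meme mapping to S288c carrying YPS1009 SNPs. The submitters' processing notes name Trimmomatic 0.39, BWA 0.7.12-r1039 and HTSeq 0.7.2. The strand setting is not given in the sources used here, so antisense neighbours cannot be told apart. The authors normalized to Sz. pombe cells; the table of 6714 genes analysed here holds no Sz. pombe genes, and no scale per cell was made. Symbols were matched for 6025 genes by systematic name to RefSeq R64, which also gave promoter sequences; the release used for mapping is not named, so coordinates are those of R64.

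A gene was tested if 2 or more of the 40 libraries had 10 counts of it (5864 genes), and was fitted with edgeR 4.0.16 (R 4.3.3, limma 3.58.1), with TMM, 1 coefficient for each of 20 groups and adjusted p under 0.05; the SE is that implied by the F statistic. Totals ran from 725316 to 7036849 counts. Nothing but the term biological duplicate says how the 2 cultures of a group were kept apart. Intervals and floors (3 counts) cover counting error only. In simulated data with 200 of 5864 genes changed, edgeR recovered 91% of 4-fold and 31% of 2-fold changes, with 7.58% of calls false. The simulation used the real library totals, the same gene profile in every library and a replicate spread of 0.2 for every gene. In the data 1327 genes were called higher and 1862 lower, and the euploid cultures differed more (r of 0.86) than those of YPS1009_Chr4 (0.95). The simulated rates need not hold for these groups.

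Members and the 37 gene lists were chosen with earlier results of these data known; 3 further lists and the call on every scale were added after values were seen. Named genes were the 10 largest and 10 smallest differences called against each euploid culture with at least 100 counts in both libraries of the higher group, up to 4 members per list by mean CPM, the 5 most abundant chromosome IV genes, and HO, RQC1, LTN1, RQC2, HEL2 and UBI4; members of a list with a call on every scale were named besides, except for a result that is not reported here. Alternatives were DESeq2 1.42.0 (size factors and Wald test), total counts, median centring, other filters, fits of fewer libraries, a replicate block and leaving out each replicate. Plots were drawn with matplotlib 3.10.9.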

Additional observations from a re-analysis of the deposited data

Results flagged for a closer look

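For 18 of the 20 genes with the largest differences at day 7, the difference between YPS1009_Chr4 and euploid was not the same at day 7 as in log phase, by edgeR's interaction term with TMM, and in the same direction with total counts. The genes were picked for their day 7 difference, so these shifts are in part built in. With TMM, the log2 shift from log phase to day 7 was 8.67 for PDC1, 7.43 for IME1, 5.06 for CIS1, 7.55 for GPX2, 5.82 for ARO10, 5.07 for UGA4, 6.06 for SCW4, 5.66 for CTF3 and 4.66 for TRR1. Among the genes with the largest deficit in YPS1009_Chr4 it was -4.79 for HXT2, -4.56 for DBP2, -4.99 for ZRG17, -4.43 for ZRT2, -4.79 for ALD6, -3.72 for UBP10, -3.90 for ECM15, -4.01 for VID24 and -2.51 for PIR3. The shift of IME1 rests on log-phase levels of at most 0.352 CPM, so its size is not known. The adjusted p ran from 6.5e-11 for CTF3 to 0.0476 for PIR3.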

How the results depend on the processing

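The counts of genes depended on the scale and on which libraries set the spread. For genes higher than euploid (1327) the count was 326 with total counts, 751 with at least 10 counts in each of the 4 libraries, 606 with only the 4 libraries compared and 875 with only the 10 day 7 libraries; leaving out 1 culture gave 1064 to 1629. For genes lower (1862), it was 4448 with total counts, 964 with the median gene centred, and 877, 640 and 1079 under the other settings in the same order; leaving out 1 culture gave 1227 to 1881. Against each euploid culture, the 961 higher became 226 with total counts or when a call on all 4 scales was asked (chosen after seeing the data), 569 with at least 10 counts in each library and 594 with only the 4 libraries. The 857 lower became 555 with DESeq2 size factors, 3258 with total counts, 465 with the median gene centred or on all 4 scales, 505 with the DESeq2 Wald test, 547 with at least 10 counts in each library, 340 with only the 4 libraries and 445 with only the day 7 libraries. Against the other aneuploids, total counts gave 435 higher (1369 with TMM) and 4225 lower (1768), and only the day 7 libraries 1112 lower. The interaction gave 4698 genes with total counts (2398). With the filter of at least 10 counts in each library fewer genes were tested; the cause of the other shifts was not tested. The chromosome IV excess of 1.01 was 0.78 with at least 100 counts and 0.73 with at least 10 counts in each of the 4 libraries (the latter chosen after seeing the data), and 0.98 to 1.04 leaving out 1 culture. Same-numbered deviations of the day 7 cultures correlated at 0.0311 across genes. This is 1 value from 4 libraries and cannot decide whether cultures of the same number were paired. A replicate block gave 1340 higher and 1828 lower. The sign turned for RQC1 (-0.71), RQC2 (-1.33) and HEL2 (-1.31) with total counts, and for RQC2 (-0.37) and HEL2 (-0.34) with at least 10 counts in each library. Under that filter, list medians relative to all genes turned for quality control (0.084), ubiquitin (-0.12), chaperones (-0.41), SNZ and SNO genes (0.54), gluconeogenesis (-0.60), mitochondrial ribosomal proteins (0.69), quiescence regulators (-0.33), alpha-specific genes (-0.053) and sporulation genes (2.32). Leaving out 1 culture, the medians ran from -0.83 to 0.11 for hexose transporters, from -0.28 to 0.14 for ergosterol genes, from -0.42 to 0.077 for proliferation genes, from -0.24 to 1.48 for a-specific genes and from -0.37 to 0.51 for iron uptake, which was 0.12 with total counts. Few counts limit many genes: of the 5864 tested, 3142 and 3224 had under 10 counts in the YPS1009_Chr4 cultures, against 1366 and 503 in euploid, although replicate 1 of both strains had similar totals.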
